A study of Arabidopsis thaliana with 36 samples.

Results

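The hypocotyl is the seedling stem between the root and the rosette, and its transcriptome was set against that of the leaves of the same Arabidopsis thaliana plants in the ground control chamber of a spaceflight experiment. The comparison used all 5 hypocotyl arrays and all 5 leaf arrays of the ground control, 10 of the 36 arrays in the series, and every probe set except the Affymetrix controls (22746 of 22810). Hypocotyls and leaves with the same plate and replicate number were taken as organs of the same plant pool. Of the 5 pools, the label gives plate 2 for 1, plate 4 for 2 and plate 6 for 2. All pools were labelled as 60% WS and 40% Col-0 plants. They carried green fluorescent protein reporters driven by the Adh promoter, the auxin response element DR5 or a constitutive viral promoter, grew for 12 days on plates in the ground copy of the orbital hardware, and were preserved in RNAlater before the organs were cut apart. The labels call the leaf samples shoots, while the methods state that leaves were cut at the base of each petiole and that the hypocotyl piece ran between the root junction and the start of the rosette. That description does not name the sample that held the shoot apex. The ground roots of the same pools, and the flight hypocotyls and leaves grown in orbit on the same plate design, were used only for comparison.

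Light turns the hypocotyl of a young seedling from an elongating, pale stem into a short green axis that joins the conducting tissues of root and shoot. Its epidermis and cortex stop dividing early, whereas its central cylinder goes on to form a vascular cambium that adds xylem inwards and phloem outwards. The leaf blade is a photosynthetic organ with distinct upper and lower sides, a waxy cuticle, stomata and trichomes, and exports sugar through its minor veins. Comparisons of the organs therefore bear on photosynthesis, on the epidermis and on the vascular system.

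Values are MAS5 signals, the linear brightness summary of 1 probe set on 1 array, scaled by the authors to the same trimmed mean on every array. Signals of different probe sets cannot be set against each other, so each gene was compared only with itself. Where the signals of a list are summed, the sum is weighted towards its brightest probe sets and is compared only between organs. Differences are log2 signal in hypocotyls minus log2 signal in leaves, ± SE, from a limma fit with the pool as a block, and a probe set passed the test at a Benjamini-Hochberg adjusted p under 0.05 over all 22746. Where 5 signals are listed, their order is plate 2, the 2 pools of plate 4 and the 2 pools of plate 6, and means are ± SD (n = 5 pools). A probe set was called low-signal when its mean over the 10 arrays lay in the lowest 40%, below a signal of 93.8. The lowest quartile of signals ended at 27.0 to 33.8 on the hypocotyl arrays and at 32.9 to 45.6 on 4 leaf arrays, and at 68.9 on the plate 2 leaf array. That array also stood apart by correlation: the leaf arrays correlated with each other at r = 0.870 to 0.916, and at 0.896 to 0.916 without it. Hypocotyl arrays correlated with each other at 0.907 to 0.929 and with leaf arrays at 0.779 to 0.862, over probe sets, which are not independent replicates.

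In hypocotyls 3406 probe sets were higher than in leaves (15% of those tested) and 3304 were lower (14.5%), and 9553 had an unadjusted p under 0.05. The median difference over all probe sets was 0.0182. The counts were nearly even, but the sizes were not: 244 probe sets were at least 8-fold higher in hypocotyls and 634 at least 8-fold lower, and at 32-fold the counts were 34 higher and 137 lower. The share with low signal was 9.37% among the higher calls and 31.1% among the lower calls. All 5 hypocotyl arrays lay above all 5 leaf arrays in 2869 of the higher calls, and below them in 2605 of the lower calls. Such groups without overlap were found in 27.8% of all probe sets. The balance depended on some processing choices. Calls in hypocotyls were 2521 higher and 3664 lower after scaling the arrays to a shared 75th percentile, but 3095 higher and 3008 lower after quantile normalization. They were 4613 higher and 2822 lower when low-signal probe sets were left out before the fit.

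**Figure D1:**
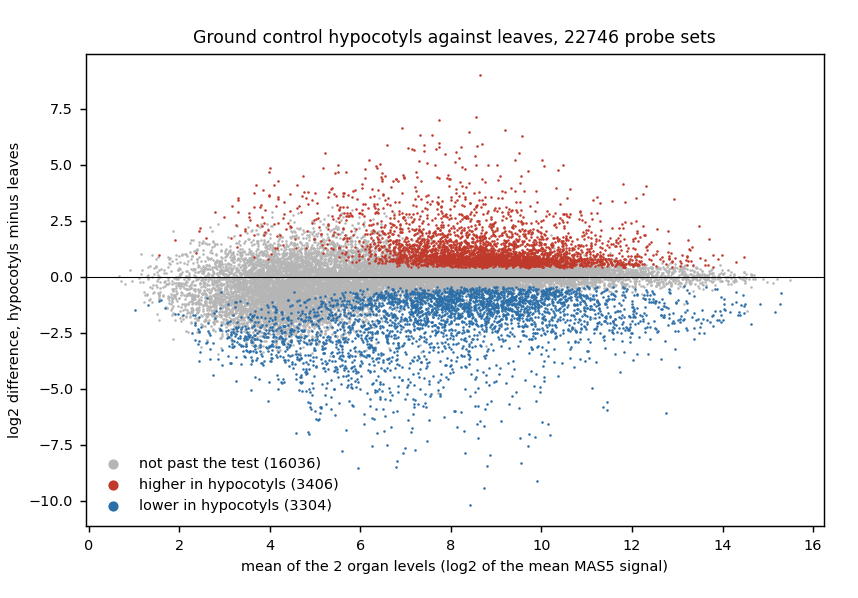
Log2 difference (ground hypocotyls minus ground leaves, vertical axis) against the log2 of the mean MAS5 signal of both organs (horizontal axis) for 22746 probe sets. Points mark 3406 probe sets higher and 3304 lower in hypocotyls at an adjusted p under 0.05, and grey points those not past the test; the lower side reaches farther from 0.

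Among single-locus genes above the low-signal limit whose groups did not overlap, the 12 with the largest positive and the 12 with the largest negative differences were named. LSH7, a member of the light-sensitive hypocotyl family of small nuclear proteins, gave 2843, 3782, 3412, 3483 and 2265 in hypocotyls, against 71.8, 35, 70.7, 46.2 and 42.2 in leaves (difference 5.93 ± 0.25, adjusted p = 0.000599). ZFP5, a C2H2 zinc finger protein known from trichome and root hair initiation, gave 1830, 1979, 1391, 1887 and 1805 in hypocotyls, against 129, 41.3, 30.3, 49.8 and 4.02 in leaves (difference 5.8 ± 0.71, adjusted p = 0.00411). For its relative ZFP6 the signals were 842, 1113, 734, 1023 and 976 in hypocotyls, against 56.7, 60.4, 6.34, 1.79 and 26.1 in leaves (difference 5.87 ± 0.84, adjusted p = 0.00658). Groups without overlap were a condition for naming these genes. Only 1 of their leaf signals, that of ZFP5 on plate 2, was above the low-signal limit.

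Several of the strongest hypocotyl genes were stronger still in roots. MLP328, a major latex protein homologue, read 6558, 4997, 5958, 5951 and 4220 in hypocotyls, against 48.2, 83.7, 32.6, 66.7 and 76.7 in leaves (difference 6.55 ± 0.31, adjusted p = 0.00061), and 23600 ± 4489 in the roots of these pools. The same order was seen for AT5G44550 (1621 ± 349 in hypocotyls and 28 ± 12.5 in leaves, 5891 ± 1013 in roots) and for AT2G23540 (1422 ± 414 in hypocotyls and 26.1 ± 22.7 in leaves, 8004 ± 1552 in roots). By contrast AT2G15780 averaged 2197 ± 651 in hypocotyls and 52 ± 48.5 in leaves and 91.6 ± 56.3 in roots, and AT5G52390 averaged 1280 ± 493 in hypocotyls and 35.3 ± 32.3 in leaves and 244 ± 74.3 in roots, so that roots and leaves were both below hypocotyls. Over the 12 genes the root mean was above the hypocotyl mean for 8 and below it for 4. The others were AT4G14060 (log2 difference 7.02), AT2G04800 (6.32), AT4G15390 (5.86) and AT3G26460 (5.7), all past the test.

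The genes farthest below leaves had hypocotyl signals near the floor of the arrays. CA1, the chloroplast carbonic anhydrase, gave 1.63, 9.13, 2.46, 28.9 and 23.7 in hypocotyls, against 9821, 12100, 8678, 7845 and 6391 in leaves (difference -10.17 ± 0.8, adjusted p = 0.00127). GER3, a germin-like cell wall protein, gave 8.3, 6.35, 36, 25.6 and 12.3 in hypocotyls, against 10860, 11140, 6339, 12520 and 9475 in leaves (difference -9.42 ± 0.51, adjusted p = 0.000649), and LTP6, a lipid transfer protein, gave 7.22, 92.6, 24.3, 22.8 and 111 in hypocotyls, against 9363, 13960, 13620, 9053 and 8570 in leaves (difference -8.32 ± 0.62, adjusted p = 0.00117). No hypocotyl signal of these genes exceeded 111, and no leaf signal was below 6339. Defence genes stood in the same group: ESM1, the epithiospecifier modifier, averaged 27.2 ± 22.2 in hypocotyls and 7197 ± 2665 in leaves (difference -8.44 ± 0.34, adjusted p = 0.000585), PCC1, a pathogen and circadian controlled gene, averaged 73.2 ± 60.7 in hypocotyls and 9376 ± 1711 in leaves (difference -7.54 ± 0.63, adjusted p = 0.00146), and LURP1, which rises late after infection by a downy mildew, averaged 7.23 ± 5.85 in hypocotyls and 1733 ± 329 in leaves (difference -8.22 ± 0.44, adjusted p = 0.000649). AT1G23130 had 1 hypocotyl array, plate 6 replicate 1, at 591, while the other 4 read 1.55 to 11.2 and the leaf signals were 4191 to 8671. The remaining lower genes were AT4G29030 (-8.49), AT2G10940 (-7.95), AT3G05730 (-7.86), AT5G50335 (-7.33) and AT1G52190 (-7.19).

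The log2 size of these differences depends on what is done with signals near 0. With the lower quartile of all signals, 36.6, added before the logarithm, the differences of the 12 lower genes ran between -7.53 and -4.93 rather than -10.2 and -7.19, and those of the 12 higher genes between 3.95 and 5.84 rather than 5.7 and 7.02. All 24 passed the test on that scale too.

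**Figure D2:**
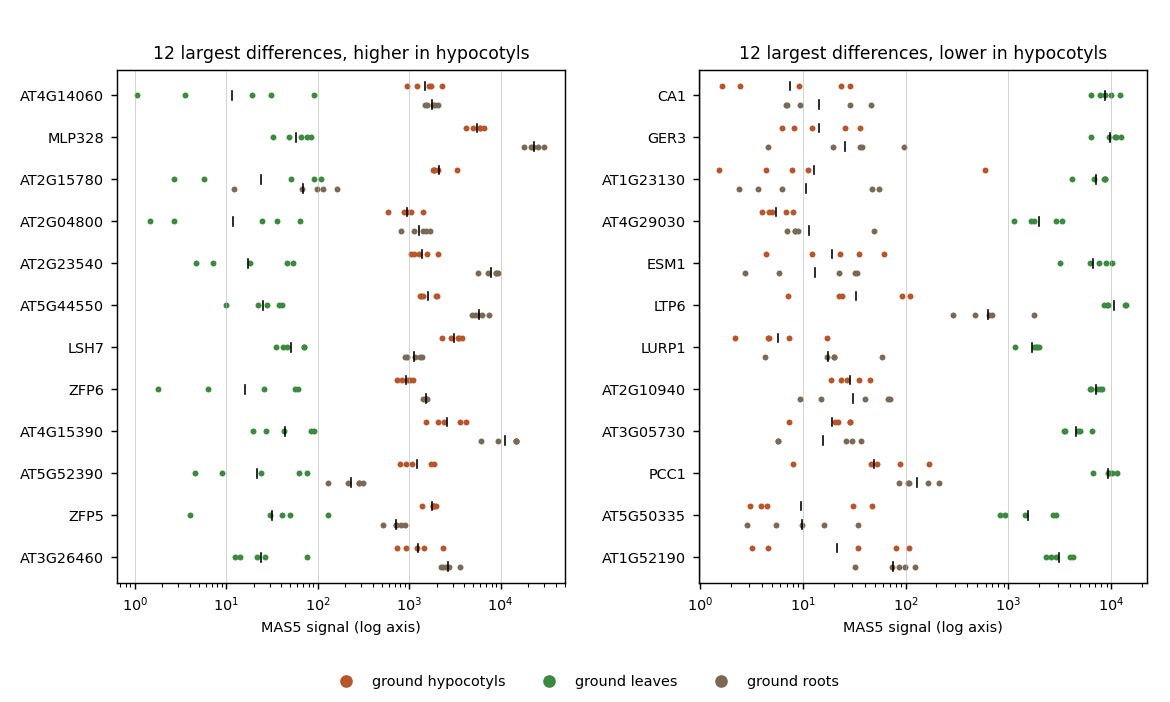
MAS5 signal (horizontal log axis) on each ground control array for the 12 genes with the largest positive and the 12 with the largest negative difference, with hypocotyls, leaves and roots as separate colours and vertical ticks at the mean log signal. Only genes without overlap of hypocotyl and leaf points could be chosen. Of the 12 genes highest in hypocotyls, 8 have a root mean above the hypocotyl mean.

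Photosynthesis genes were lower in hypocotyls almost without exception. Of 13 measured genes for light-harvesting proteins, which bind chlorophyll in the antennae, 12 were lower and none was higher (median difference -1.86), where the share of all probe sets was 14.5% lower and 15% higher and their median 0.0182. All 31 genes for photosystem subunits and electron carriers were lower, with a median of -1.91 and a range of -2.38 to -1.22, and all 16 Calvin cycle genes were lower (median -1.90). Their summed photosystem signal was 148600 to 183900 in hypocotyl pools, against 521100 to 655900 in leaf pools. Bulk RNA cannot tell fewer green cells in the hypocotyl from less of each RNA in its green cells. In roots the photosystem sums were lower again: all 31 genes were higher in hypocotyls than in roots, with a median difference of 3.08, as against a background of 10.7% of probe sets higher and 12.7% lower in hypocotyls than in roots. The 2 comparisons share the hypocotyl arrays.

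LHCB3, an antenna protein of photosystem II, gave 10270, 7737, 6101, 9431 and 11210 in hypocotyls, against 33780, 32620, 23830, 27040 and 27870 in leaves (difference -1.72 ± 0.16, adjusted p = 0.00194). The antenna gene with the largest difference was LHCA6, a minor photosystem I antenna involved in binding the NADH dehydrogenase-like complex, at 99.5, 153, 95, 122 and 91.9 in hypocotyls, against 2186, 2516, 1626, 1573 and 1432 in leaves (difference -4.05 ± 0.15, adjusted p = 0.000564). LHCB2.3 averaged 521 ± 135 in hypocotyls and 6538 ± 749 in leaves (difference -3.68 ± 0.18, adjusted p = 0.00061) and LHCA1 7927 ± 1199 in hypocotyls and 30060 ± 3513 in leaves (difference -1.93 ± 0.14, adjusted p = 0.00117). For PSBS, the sensor that switches on dissipation of excess light, the means were 2606 ± 352 in hypocotyls and 13020 ± 3191 in leaves (difference -2.29 ± 0.21, adjusted p = 0.00181). PSBO1, part of the oxygen-evolving complex, averaged 5607 ± 656 in hypocotyls and 21170 ± 2264 in leaves (difference -1.92 ± 0.15, adjusted p = 0.00132). In each of these genes the hypocotyl and leaf signals were separated by a gap, as in 2605 of all 3304 lower calls.

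Carbon fixation and photorespiration followed, with the larger median in photorespiration. RCA, which reactivates Rubisco, gave 4776, 4517, 2869, 4423 and 3640 in hypocotyls, against 30510, 31050, 26900, 24210 and 24020 in leaves (difference -2.77 ± 0.15, adjusted p = 0.000649). GAPB, the chloroplast glyceraldehyde phosphate dehydrogenase B subunit, averaged 2488 ± 308 in hypocotyls and 18400 ± 4022 in leaves (difference -2.87 ± 0.18, adjusted p = 0.000759), and SBPASE, a phosphatase of the regeneration phase, averaged 1169 ± 105 in hypocotyls and 8124 ± 1429 in leaves (difference -2.78 ± 0.14, adjusted p = 0.000631). Of 14 photorespiration genes 13 were lower and none higher (92.9% lower, against 14.5% over all probe sets, median -2.48). AGT1, the peroxisomal aminotransferase that converts glyoxylate to glycine, gave 103, 124, 83.5, 299 and 124 in hypocotyls, against 6227, 7087, 5550, 5922 and 5595 in leaves (difference -5.52 ± 0.29, adjusted p = 0.000649). PLGG1, the chloroplast exporter of glycolate, averaged 74 ± 13.1 in hypocotyls and 1827 ± 619 in leaves (difference -4.57 ± 0.25, adjusted p = 0.000649), and GDCH, the H protein of glycine decarboxylase, averaged 1338 ± 204 in hypocotyls and 14710 ± 3458 in leaves (difference -3.44 ± 0.17, adjusted p = 0.000631). CAT2, the leaf peroxisomal catalase, averaged 309 ± 63.2 in hypocotyls and 1935 ± 715 in leaves (difference -2.58 ± 0.25, adjusted p = 0.00199), but its root mean of 1855 ± 317 was close to the leaf level. The hypocotyl was thus the organ with the lowest CAT2 signal.

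Chlorophyll synthesis genes were lower to a smaller extent, 19 of 22 passing the test, none higher, with a median of -1.37. The lower share was 86.4%, against 14.5% over all probe sets. PORC, 1 of the light-dependent protochlorophyllide reductases, gave 596, 444, 319, 206 and 231 in hypocotyls, against 3389, 3273, 3128, 2243 and 2660 in leaves (difference -3.13 ± 0.2, adjusted p = 0.000792). CHLH, the large subunit of magnesium chelatase, averaged 4026 ± 504 in hypocotyls and 8391 ± 947 in leaves (difference -1.06 ± 0.14, adjusted p = 0.00466). HEMA1, the entry enzyme, averaged 743 ± 154 in hypocotyls and 1245 ± 250.3 in leaves (difference -0.75 ± 0.19, adjusted p = 0.0394). Its groups overlapped, and the call was lost when any 1 of 4 pools was left out, with adjusted p up to 0.116.

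The transcription factors that switch on chloroplast genes were not uniformly lower. GLK1 gave 64.5, 54.4, 69.1, 81.2 and 67 in hypocotyls, against 829.9, 1235, 1015, 455 and 835 in leaves (difference -3.64 ± 0.3, adjusted p = 0.00142), whereas its close homologue GLK2 gave 461, 457, 289.5, 557 and 414 in hypocotyls, against 376, 521, 360.3, 436 and 463 in leaves (difference -0.0039 ± 0.16, adjusted p = 0.989). GLK2 signals overlapped fully, and GLK2 averaged 102 ± 30.4 in roots. GNC, a GATA factor that promotes greening, averaged 5.04 ± 4.01 in hypocotyls and 136 ± 11 in leaves (difference -5.09 ± 0.47, adjusted p = 0.00185), and its paralogue CGA1 averaged 32.2 ± 12.2 in hypocotyls and 83.8 ± 45.7 in leaves (difference -1.09 ± 0.44, adjusted p = 0.124); both were low-signal. In each pair of paralogues 1 gene passed, and the difference between the paralogues was not tested. Of 27 light signalling and chloroplast regulators, 11 were lower and 3 higher (median -0.64). This was 40.7% and 11.1%, against 14.5% and 15% over all probe sets. The higher count was 1 or 2 with 1 pool left out. It was 1 without plate 2 and 1 after quantile or 75th percentile scaling. The blue light receptors PHOT1 and PHOT2, which steer phototropism and chloroplast movement, averaged 364 ± 60.6 in hypocotyls and 1664 ± 267 in leaves (difference -2.2 ± 0.13, adjusted p = 0.000757) and 128 ± 34.9 in hypocotyls and 1081 ± 192 in leaves (difference -3.1 ± 0.19, adjusted p = 0.000743). These lower regulators were separated from leaves in every pool. Groups did not overlap in 2605 of all 3304 lower calls. PIF4, a growth-promoting factor degraded in light, averaged 74.2 ± 13 in hypocotyls and 362 ± 49.9 in leaves (difference -2.29 ± 0.16, adjusted p = 0.00103). HY5, a factor that restrains hypocotyl growth in light, was 1 of the 3 higher genes, at 346, 386, 428, 288 and 326 in hypocotyls, against 189.8, 186, 209, 208 and 124 in leaves (difference 0.96 ± 0.17, adjusted p = 0.012). The phytochromes PHYA and PHYB averaged 1230 ± 106 in hypocotyls and 944 ± 53.5 in leaves (difference 0.38 ± 0.12, adjusted p = 0.0647) and 719 ± 124 in hypocotyls and 682 ± 139 in leaves (difference 0.09 ± 0.18, adjusted p = 0.75), neither past the test.

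Of 26 genes for leaf polarity and blade growth 19 were lower and 2 higher (median -2.64, and -1.34 with the offset). This was 73.1% and 7.69%, against 14.5% and 15% over all probe sets. FIL and YAB3, factors of the lower leaf side, gave 21.8, 5.41, 3.76, 22.5 and 11.4 in hypocotyls, against 356, 458, 504, 304 and 308 in leaves (difference -5.2 ± 0.57, adjusted p = 0.0030) and 5.63, 19.1, 40.1, 12.3 and 18.6 in hypocotyls, against 409, 421, 480.5, 387 and 465 in leaves (difference -4.77 ± 0.38, adjusted p = 0.0013). TCP4, which ends cell proliferation in the blade, averaged 14.3 ± 22 in hypocotyls and 222 ± 67.7 in leaves (difference -4.96 ± 0.66, adjusted p = 0.00519), and TCP3 averaged 63.4 ± 19.4 in hypocotyls and 398 ± 105 in leaves (difference -2.65 ± 0.21, adjusted p = 0.00125). AS2, which represses meristem genes in the blade, averaged 15.8 ± 9.29 in hypocotyls and 139 ± 46.3 in leaves (difference -3.52 ± 0.54, adjusted p = 0.00788), while its partner AS1 averaged 813 ± 225 in hypocotyls and 1098 ± 275 in leaves (difference -0.44 ± 0.16, adjusted p = 0.102) with overlapping groups. GRF5, a growth-regulating factor, averaged 16.5 ± 9.68 in hypocotyls and 94.1 ± 40.3 in leaves (difference -2.78 ± 0.6, adjusted p = 0.0226), and lost its call without the plate 2 pool or either plate 6 pool (adjusted p up to 0.0691). KAN1, a factor of the lower side, averaged 2.82 ± 1.6 in hypocotyls and 35.6 ± 29.7 in leaves (difference -2.99 ± 0.64, adjusted p = 0.0224), and lost its call without either plate 4 pool (adjusted p up to 0.0727). Of the 26 genes 14 were low-signal.

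The 2 higher genes were both chosen for mention after their values were seen, and the higher count was 1 without the second plate 4 pool or the first plate 6 pool. ETT, an auxin response factor of organ polarity, gave 666, 713, 855, 676 and 602 in hypocotyls, against 254, 257, 209.5, 275 and 266 in leaves (difference 1.47 ± 0.17, adjusted p = 0.00318). KAN3, a member of the KANADI family, averaged 497 ± 129 in hypocotyls and 196 ± 65.3 in leaves (difference 1.38 ± 0.31, adjusted p = 0.0262), a call lost without the plate 2 pool and with either of 2 further pools left out (adjusted p up to 0.0816).

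Of 21 stomatal genes 14 were lower and 1 higher, with a median of -3.53. This was 66.7% and 4.76%, against 14.5% and 15% over all probe sets. With the offset the median was -1.52. The 6 genes left without low-signal probe sets had 3 lower and a median of -0.24. The lower count was 10 to 13 with 1 pool left out. EPFL9, a mesophyll peptide that promotes stomata, gave 64.6, 54.4, 102, 112 and 102 in hypocotyls, against 2321, 2529, 3191, 2020 and 2081 in leaves (difference -4.84 ± 0.24, adjusted p = 0.000631). SCRM2, a partner of the lineage factors, averaged 39.7 ± 13.3 in hypocotyls and 499.9 ± 85.2 in leaves (difference -3.71 ± 0.19, adjusted p = 0.000649), and TMM, a receptor-like protein of stomatal spacing, averaged 19.8 ± 10.3 in hypocotyls and 203 ± 70.2 in leaves (difference -3.46 ± 0.22, adjusted p = 0.000798). The lineage factors SPCH and FAMA were dim in leaves too, at 8.84 ± 7.64 in hypocotyls and 95.1 ± 31.1 in leaves (difference -4.11 ± 0.9, adjusted p = 0.024) and 8.88 ± 10.3 in hypocotyls and 53.4 ± 9.89 in leaves (difference -3.53 ± 0.72, adjusted p = 0.0197), and the calls were lost without the plate 2 pool, among others (adjusted p up to 0.0704 for SPCH and 0.0593 for FAMA). The hypocotyl signals of TMM, SPCH and FAMA were all below 34. GORK, an outward potassium channel known from guard cells and roots and named after its value was seen, went the other way at 566, 792, 510.5, 857 and 577 in hypocotyls, against 92.1, 53.1, 80.7, 90.8 and 54.8 in leaves (difference 3.16 ± 0.23, adjusted p = 0.00112), with 293 ± 38.6 in roots.

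Of the 11 trichome regulators on the list 6 were lower and none higher (median -2.83, and -1.29 with the offset). The lower share was 54.5%, against 14.5% over all probe sets. ZFP5 and its relative ZFP6, named above and both far higher in hypocotyls, were not on this list. Of the 11 genes 10 were low-signal. The 1 gene left without low-signal probe sets differed by 0.256 and did not pass. The lower count was 4 without the plate 2 pool. The initiation factor GL1 averaged 8.71 ± 8.26 in hypocotyls and 76 ± 28.5 in leaves (difference -3.62 ± 0.54, adjusted p = 0.00752), GL2, which acts downstream of it, averaged 5.47 ± 0.982 in hypocotyls and 123 ± 41.1 in leaves (difference -4.45 ± 0.14, adjusted p = 0.000439), and the inhibitor TRY averaged 8.64 ± 11 in hypocotyls and 116 ± 45 in leaves (difference -4.44 ± 0.63, adjusted p = 0.00638). All 3 were low-signal, and hypocotyl levels lay between 1.44 and 27.8.

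Cuticle genes were lower for 21 of 26 and higher for none, with a median of -2.94 and summed signals of 1721 to 2508 in hypocotyls, against 13420 to 17700 in leaves. The lower share was 80.8%, against 14.5% over all probe sets. CER6, the condensing enzyme for very long wax chains, gave 60.9, 71.7, 75.6, 72.2 and 93.3 in hypocotyls, against 1001, 1295, 1381, 1030 and 1312 in leaves (difference -4.01 ± 0.13, adjusted p = 0.000434). LTPG1 and LTPG2, anchored lipid transfer proteins of wax export, averaged 205 ± 55.3 in hypocotyls and 3700 ± 415 in leaves (difference -4.22 ± 0.23, adjusted p = 0.000649) and 77.2 ± 13.2 in hypocotyls and 1579 ± 479 in leaves (difference -4.32 ± 0.17, adjusted p = 0.000581). CER1, needed for alkane formation, averaged 17.9 ± 14.9 in hypocotyls and 357 ± 93.5 in leaves (difference -5.07 ± 0.79, adjusted p = 0.00839). Hypocotyl signals lay below every leaf signal for these 4 genes, as in 2605 of all 3304 lower calls. In roots LTPG1 averaged 1151 ± 411 and CER1 234 ± 74.8, both higher than in hypocotyls (log2 hypocotyl minus root difference -2.48, adjusted p = 0.00687, and -4.44, adjusted p = 0.0166).

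Secondary wall polysaccharide genes were higher for 15 of 19 and lower for none (median 1.64), lignin genes for 15 of 21 with 1 lower (1.22), and cambium and vascular patterning genes for 15 of 19 with 2 lower (1.78). Xylem regulators and vessel proteases were higher for 12 of 31 and lower for none, and 20 of the 31 were low-signal. In the order given, the higher shares were 78.9%, 71.4%, 78.9% and 38.7%. Over all probe sets 15% were higher and 14.5% lower. With 1 pool left out the xylem regulator count was 7 to 11 and the secondary wall count 10 to 13.

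The cellulose synthases of secondary walls are CESA4, CESA7 and CESA8. CESA8 gave 817, 907, 609, 528 and 663 in hypocotyls, against 246, 199.9, 146, 232 and 327 in leaves (difference 1.64 ± 0.23, adjusted p = 0.00582), and CESA4 740.3, 711, 584, 224 and 474 in hypocotyls, against 315, 254, 222, 169.7 and 204 in leaves (difference 1.15 ± 0.2, adjusted p = 0.0116). For CESA7 the signals were 926, 1051, 1352, 316 and 562 in hypocotyls, against 214, 171, 138, 255 and 193 in leaves (difference 1.97 ± 0.45, adjusted p = 0.0266), and its call was lost when any 1 of 4 pools was left out (adjusted p up to 0.0844). The 3 genes had lower signals in both plate 6 hypocotyl pools than in the 3 pools of plates 2 and 4, except that CESA8 in 1 plate 4 pool was below 1 plate 6 pool. Xylan genes showed larger differences: IRX8, a glycosyltransferase of xylan chains, gave 778, 903, 817, 327 and 379.8 in hypocotyls, against 134, 88.7, 73.5, 67.3 and 70.5 in leaves (difference 2.81 ± 0.24, adjusted p = 0.00151), and IRX15-L, a protein of xylan synthesis, gave 756, 902, 845, 746 and 701 in hypocotyls, against 122, 107, 196, 106 and 119.8 in leaves (difference 2.63 ± 0.17, adjusted p = 0.000872). FLA12, an arabinogalactan protein of fibres and vessels, averaged 1639 ± 357 in hypocotyls and 522 ± 86.8 in leaves (difference 1.64 ± 0.15, adjusted p = 0.00168).

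The same plate order was seen in vessel genes. XCP1, a protease that clears the dying vessel cell, gave 2468, 3755, 2173, 958 and 1060 in hypocotyls, against 297, 382, 273, 264 and 221 in leaves (difference 2.69 ± 0.26, adjusted p = 0.00199), and XCP2 gave 4589, 5572, 4154, 1872 and 2818 in hypocotyls, against 1425, 1485, 1074, 1092 and 1139 in leaves (difference 1.53 ± 0.22, adjusted p = 0.0064). RNS3, a ribonuclease of maturing xylem, gave 788, 1523, 1135, 319 and 375 in hypocotyls, against 139.8, 161, 122, 66.6 and 65.1 in leaves (difference 2.75 ± 0.2, adjusted p = 0.00117). In all 3 both plate 6 hypocotyl pools were the lowest, and still above every leaf pool. Groups did not overlap in 2869 of all 3406 higher calls. The difference was present within each plate: the median over the secondary wall list was 1.36 in the plate 2 pool, 1.78 and 2.03 in the plate 4 pools, and 0.926 and 1.25 in the plate 6 pools.

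Upstream factors of the xylem were measured less well. KNAT7, a regulator of secondary walls, averaged 379.9 ± 138 in hypocotyls and 123 ± 34.5 in leaves (difference 1.61 ± 0.18, adjusted p = 0.0030). MYB46, a master switch of wall synthesis, averaged 242 ± 112 in hypocotyls and 80.2 ± 51.6 in leaves (difference 1.7 ± 0.48, adjusted p = 0.0487), and lost its call with any 1 plate 4 or plate 6 pool left out, and on 2 other scalings (adjusted p up to 0.185). VND6, which specifies metaxylem vessels, averaged 146 ± 44.3 in hypocotyls and 65 ± 23.9 in leaves (difference 1.2 ± 0.2, adjusted p = 0.00975), and VND7, its protoxylem counterpart, averaged 166 ± 34.4 in hypocotyls and 90.4 ± 25.2 in leaves (difference 0.89 ± 0.29, adjusted p = 0.0722). SND1, the fibre switch, was at 22 ± 16.4 in hypocotyls and 26.2 ± 38.7 in leaves (difference 1.0 ± 1.15, adjusted p = 0.555). Its signals were at the array floor in both organs.

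The lignin genes that were higher included the first step of the pathway. PAL1, the entry enzyme of phenylpropanoids, gave 3309, 4064, 4068, 3884 and 3193 in hypocotyls, against 1201, 1247, 672, 1120 and 925 in leaves (difference 1.87 ± 0.2, adjusted p = 0.00263). CSE, the caffeoyl shikimate esterase, averaged 4719 ± 507 in hypocotyls and 1336 ± 112 in leaves (difference 1.82 ± 0.13, adjusted p = 0.00103), OMT1, a methyltransferase of the monolignol branch, averaged 7801 ± 534 in hypocotyls and 2594 ± 138 in leaves (difference 1.59 ± 0.12, adjusted p = 0.00122), and LAC4, a laccase that polymerises lignin in vessels, gave 1072, 1372, 1009, 373 and 524 in hypocotyls, against 226, 101, 149, 111 and 104 in leaves (difference 2.57 ± 0.31, adjusted p = 0.0039). A second laccase, LAC17, averaged 146 ± 81 in hypocotyls and 69.2 ± 33.1 in leaves (difference 1.0 ± 0.35, adjusted p = 0.0857). PAL1 and OMT1 averaged 5411 ± 1070 and 10270 ± 2094 in roots. The lower exception, FAH1, which hydroxylates precursors of syringyl lignin and of leaf sinapate esters, was named after its value was seen and gave 141, 147, 131, 87.2 and 165 in hypocotyls, against 314, 346, 307, 483 and 347 in leaves (difference -1.43 ± 0.25, adjusted p = 0.0118).

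Cambium genes differed evenly across the pools, their median in the 5 pools lying between 1.62 and 1.74. PXY, the receptor that keeps cambium cells dividing, gave 1526, 1745, 1456, 1393 and 1287 in hypocotyls, against 497, 511, 407, 269 and 311 in leaves (difference 1.93 ± 0.16, adjusted p = 0.00136). Its ligand gene CLE41, a phloem peptide, averaged 2727 ± 738 in hypocotyls and 1410 ± 469 in leaves (difference 0.98 ± 0.28, adjusted p = 0.0512), just outside the threshold although the groups did not overlap. LBD4, a factor of the procambium boundary, gave 1663, 1747, 1348, 1216 and 1010 in hypocotyls, against 288, 198, 206, 93.8 and 165 in leaves (difference 2.94 ± 0.22, adjusted p = 0.00111), and ATHB-8, a class III HD-ZIP factor of the procambium, gave 1814, 1465, 2339, 1574 and 1601 in hypocotyls, against 413, 464, 434, 482 and 446 in leaves (difference 1.96 ± 0.16, adjusted p = 0.00149). The receptor kinases RUL1 and MOL1, which act on cambium activity in opposite directions, averaged 1789 ± 315 in hypocotyls and 416 ± 68.8 in leaves (difference 2.1 ± 0.14, adjusted p = 0.00090) and 1555 ± 119 in hypocotyls and 413 ± 59.9 in leaves (difference 1.92 ± 0.14, adjusted p = 0.00117). Every hypocotyl pool exceeded every leaf pool in all 6 genes, as in 2869 of all 3406 higher calls. Against roots, 13 of the 19 were higher in hypocotyls and none lower, where the shares of all probe sets were 10.7% and 12.7%. PXY averaged 494 ± 88.8 and RUL1 1727 ± 212 in roots. The 2 lower members, ER and ERL1, receptor kinases that also act on stomata and stem growth and were named after their values were seen, averaged 474 ± 35.8 in hypocotyls and 1470 ± 220.3 in leaves (difference -1.62 ± 0.13, adjusted p = 0.00132) and 45.9 ± 9.01 in hypocotyls and 97.2 ± 29.3 in leaves (difference -1.05 ± 0.2, adjusted p = 0.0146). The ERL1 call was lost without the plate 2 pool and without either of 2 others (adjusted p up to 0.0539).

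Of 16 phloem genes 5 were higher and 4 lower, 31.2% and 25% against 15% and 14.5% over all probe sets (median 0.31). The higher count was 3 without the plate 2 pool. Among the lower genes SWEET11, a sucrose exporter of leaf veins, gave 46.8, 74.2, 72.8, 308 and 43.5 in hypocotyls, against 6148, 4316, 2891, 4758 and 5999 in leaves (difference -5.85 ± 0.52, adjusted p = 0.00166), and SUC2, the companion cell sucrose importer, gave 226, 254, 158, 184 and 278 in hypocotyls, against 1677, 1694, 1168, 1264 and 1903 in leaves (difference -2.81 ± 0.11, adjusted p = 0.000581). Among the higher genes OPS, which fixes sieve element identity, gave 828, 764, 698, 625 and 490.4 in hypocotyls, against 106, 146, 95, 91.8 and 104 in leaves (difference 2.65 ± 0.16, adjusted p = 0.000757), and SEOR1, a filament protein of sieve elements, averaged 969 ± 102 in hypocotyls and 488 ± 104 in leaves (difference 1.01 ± 0.19, adjusted p = 0.015), with an adjusted p of 0.0522 without the plate 2 pool. APL, a factor of phloem identity in both cell types, averaged 261 ± 66.6 in hypocotyls and 306 ± 60.3 in leaves (difference -0.24 ± 0.18, adjusted p = 0.352). The SUC2 root mean was 372 ± 70, so leaves were the highest organ.

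All 4 class I KNOX genes, which keep cells of the shoot meristem undifferentiated, were higher in hypocotyl samples. STM gave 1735, 2432, 2132, 3490 and 2965 in hypocotyls, against 416, 315, 449.6, 573 and 405 in leaves (difference 2.55 ± 0.18, adjusted p = 0.00105) and averaged 37.1 ± 29.9 in roots. KNAT1, also called BREVIPEDICELLUS, gave 5476, 4723, 6622, 4573 and 3643 in hypocotyls, against 289, 277, 566, 289.5 and 225 in leaves (difference 3.98 ± 0.15, adjusted p = 0.000564) and 951 ± 282 in roots. The other 2, named after their values were seen, were KNAT2 at 436 ± 79.5 in hypocotyls and 115 ± 26.6 in leaves (difference 1.94 ± 0.25, adjusted p = 0.00502) and KNAT6. KNAT6 was at 394 ± 65.5 in hypocotyls and 120 ± 64.3 in leaves (difference 1.9 ± 0.34, adjusted p = 0.0134). BOP2, an organ boundary factor, averaged 806 ± 182 in hypocotyls and 135 ± 41.7 in leaves (difference 2.61 ± 0.23, adjusted p = 0.0017). Over the meristem and boundary list 8 of 17 were higher and none lower (median 0.76, and 0.24 with the offset). The higher share was 47.1%, against 15% over all probe sets. The stem cell markers WUS and CLV3 were at background in both organs, WUS at 4.87, 2.05, 12.2, 0.939 and 24.9 in hypocotyls, against 8.43, 57.8, 1.43, 2.42 and 1.65 in leaves (difference 0.0095 ± 1.37, adjusted p = 0.996), and CLV3 at 1.06, 5.11, 7.03, 5.42 and 2.36 in hypocotyls, against 4.43, 2.83, 4.5, 10.3 and 1.55 in leaves (difference -0.18 ± 0.5, adjusted p = 0.818). Whether the hypocotyl pieces contained parts of the apex was not tested.

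Of 15 mitosis genes 11 were higher and none lower, with a median of 0.80. The higher share was 73.3%, against 15% over all probe sets. With 1 pool left out the count was 5 to 8, and without the plate 2 pool it was 6. On plate means it was 0, with a median of 0.76. CYCB2;2, a mitotic cyclin, gave 507, 389, 482, 486 and 424 in hypocotyls, against 163, 239, 248, 171 and 195 in leaves (difference 1.19 ± 0.18, adjusted p = 0.00827). CYCA1;1 averaged 1526 ± 392 in hypocotyls and 752 ± 71.1 in leaves (difference 0.99 ± 0.14, adjusted p = 0.00627), and CDKB2;2, a mitotic kinase, averaged 739 ± 79.7 in hypocotyls and 396 ± 63.2 in leaves (difference 0.91 ± 0.13, adjusted p = 0.00702). CYCB1;1 and the cytokinesis syntaxin KN averaged 349 ± 72.9 in hypocotyls and 236 ± 55 in leaves (difference 0.57 ± 0.19, adjusted p = 0.0739) and 1767 ± 258 in hypocotyls and 1310 ± 149 in leaves (difference 0.43 ± 0.14, adjusted p = 0.0798), neither past the test. DNA replication genes differed less, 3 of 10 higher (30% against 15% over all probe sets, median 0.41). The count was 0 or 1 with 1 pool left out, 0 without plate 2 and 0 after either scaling. MCM5 and MCM2, subunits of the replication helicase, averaged 389.9 ± 99.2 in hypocotyls and 250.3 ± 25 in leaves (difference 0.61 ± 0.16, adjusted p = 0.0413) and 341 ± 51.1 in hypocotyls and 236 ± 38.3 in leaves (difference 0.54 ± 0.15, adjusted p = 0.0469). The MCM5 call was lost with any 1 pool left out (adjusted p 0.0526 to 0.114). The MCM2 call was lost with any 1 pool left out except the first plate 6 pool (adjusted p up to 0.128). Neither passed after quantile or 75th percentile scaling or on plate means.

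**Figure D3:**
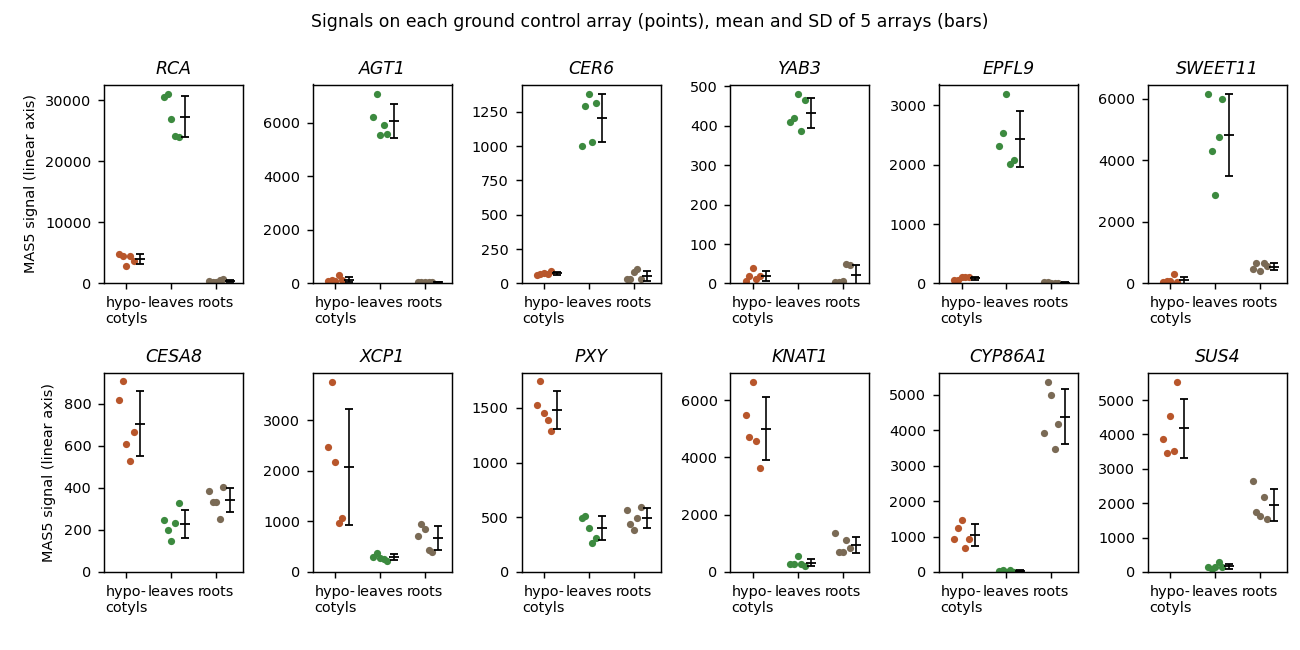
MAS5 signal (vertical linear axis from 0) of 12 genes on each ground control array of hypocotyls, leaves and roots, with bars for the mean and SD of 5 arrays. Hypocotyls are the highest organ for KNAT1 (mean 5007) and PXY (1482), leaves for RCA (27340) and roots for CYP86A1 (4381).

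Root genes were checked because the lower cut passes next to the root. The root hair genes EXPA7 and COBL9 were at 15.6 ± 19.8 in hypocotyls and 27.9 ± 25 in leaves (difference -0.82 ± 0.65, adjusted p = 0.391) and 26.9 ± 14.5 in hypocotyls and 62.8 ± 34 in leaves (difference -1.34 ± 0.49, adjusted p = 0.096), against 332 ± 170.4 and 457 ± 140 in roots. PIN2, the auxin carrier of the root epidermis, averaged 63.2 ± 34.8 in hypocotyls and 35 ± 27.5 in leaves (difference 0.88 ± 1.01, adjusted p = 0.554) and 477 ± 94.2 in roots. These markers were at background in both organs. Over 26 root markers 5 were higher and 3 lower than in leaves, 19.2% and 11.5% against 15% and 14.5% over all probe sets (median -0.03, and -0.192 to 0.333 with 1 pool left out). Against roots 20 were lower in hypocotyls and none higher, with a median of -3.37, where 12.7% of all probe sets were lower and 10.7% higher. Their summed signal of 14960 to 25110 in hypocotyls, against 2477 to 3716 in leaves, came mostly from BGLU23, a beta-glucosidase of ER bodies, at 14600, 13140, 20810, 11770 and 12720 in hypocotyls, against 1426, 1328, 759, 1892 and 1161 in leaves (difference 3.51 ± 0.32, adjusted p = 0.00176) and 31030 ± 1218 in roots. PHO1, which loads phosphate into the xylem, averaged 1673 ± 323 in hypocotyls and 224 ± 45.2 in leaves (difference 2.9 ± 0.17, adjusted p = 0.000727) and 1339 ± 195 in roots. SCR, a factor of the endodermis that leaves also use in bundle sheath cells, was lower at 39.9 ± 14.5 in hypocotyls and 412 ± 65.8 in leaves (difference -3.44 ± 0.23, adjusted p = 0.000856), with 404 ± 92.2 in roots.

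Of 23 suberin and Casparian strip genes 12 were higher in hypocotyls than in leaves and 2 lower (median 1.34, and 0.77 with the offset). This was 52.2% and 8.7%, against 15% and 14.5% over all probe sets. With 1 pool left out 7 to 11 were higher. Against roots, 21 of the same 23 were lower in hypocotyls and none higher (median -2.66). Of all probe sets 12.7% were lower and 10.7% higher in hypocotyls than in roots. CYP86A1, which makes the omega-hydroxy acids of suberin, gave 935, 1235, 1468, 675 and 936 in hypocotyls, against 19.4, 48, 11.1, 52.4 and 7.23 in leaves (difference 5.61 ± 0.57, adjusted p = 0.00241) and 4381 ± 779 in roots. ASFT, which adds ferulate to suberin, averaged 453 ± 149 in hypocotyls and 69.4 ± 30.5 in leaves (difference 2.76 ± 0.27, adjusted p = 0.00213) and 2892 ± 1010 in roots, and KCS2, an elongase of its fatty acids, averaged 339.9 ± 71.8 in hypocotyls and 56.3 ± 24 in leaves (difference 2.68 ± 0.27, adjusted p = 0.0023) and 1914 ± 574 in roots. GPAT5, an acyltransferase of suberin, averaged 140.4 ± 38.8 in hypocotyls and 26.3 ± 35.8 in leaves (difference 3.47 ± 0.86, adjusted p = 0.0341), a call lost when any 1 plate 4 or plate 6 pool was left out (adjusted p up to 0.0970). CASP1, the scaffold of the Casparian strip, was at 48.8 ± 18.6 in hypocotyls and 41.1 ± 45.4 in leaves (difference 1.08 ± 0.68, adjusted p = 0.287), against 4866 ± 2371 in roots. CYP86A1, ASFT and KCS2 were thus between roots and leaves, whereas CASP1 was at background in both shoot organs. The lower members were KCS20, a second elongase that also serves wax, at 142 ± 19 in hypocotyls and 786 ± 193 in leaves (difference -2.44 ± 0.19, adjusted p = 0.00127), and CASP5. CASP5, named after its value was seen, was low-signal at 17.5 ± 15.7 in hypocotyls and 42.4 ± 23.3 in leaves (difference -1.66 ± 0.29, adjusted p = 0.0119). The CASP5 call was lost in 7 of 15 other settings, among them no block, quantile normalization and plate means (adjusted p up to 0.19).

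Of 26 expansins, which loosen walls at acid pH, 30.8% were higher and 34.6% lower (8 and 9 genes, median -0.89). Of 32 xyloglucan endotransglucosylases 18.8% were higher and 25% lower (6 and 8 genes, median -0.38), against 15% higher and 14.5% lower over all probe sets. With 1 pool left out the counts were 5 or 6 higher and 8 or 9 lower expansins, and 2 to 5 higher and 4 to 6 lower xyloglucan genes. Without plate 2 they were 5 and 8 expansins and 4 and 4 xyloglucan genes. The 2 higher xyloglucan genes were without the first plate 4 pool. EXPA4 gave 9339, 8418, 8283, 6910 and 6922 in hypocotyls, against 1569, 1569, 1674, 1400 and 1611 in leaves (difference 2.34 ± 0.13, adjusted p = 0.000649), but EXPA3 gave 44.3, 44.8, 29.3, 32.1 and 24 in hypocotyls, against 656, 872, 925, 1072 and 1215 in leaves (difference -4.78 ± 0.29, adjusted p = 0.000743) and EXPA8 averaged 109 ± 40.8 in hypocotyls and 1342 ± 266 in leaves (difference -3.67 ± 0.2, adjusted p = 0.000649). Among the xyloglucan enzymes, which cut and rejoin the tethers between cellulose fibrils, XTH31 gave 4359, 6229, 4139, 5160 and 4499 in hypocotyls, against 676, 1127, 699.9, 385 and 574 in leaves (difference 2.89 ± 0.23, adjusted p = 0.00125), XTH15 averaged 791 ± 139 in hypocotyls and 125 ± 28.1 in leaves (difference 2.67 ± 0.18, adjusted p = 0.000865), and XTH17 averaged 35.7 ± 13.6 in hypocotyls and 355 ± 128 in leaves (difference -3.33 ± 0.3, adjusted p = 0.00169). Members of the same family thus stood on opposite sides.

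Of 30 Aux/IAA and GH3 genes 9 were higher and 5 lower, 30% and 16.7% against 15% and 14.5% over all probe sets (median 0.34). IAA17 and IAA27, repressors of auxin response, gave 2780, 3496, 3350, 3084 and 2738 in hypocotyls, against 658, 735, 626, 683 and 705 in leaves (difference 2.18 ± 0.13, adjusted p = 0.00072) and 7843, 7674, 8088, 7619 and 6848 in hypocotyls, against 1638, 1601, 1595, 1674 and 1880 in leaves (difference 2.18 ± 0.13, adjusted p = 0.000727). IAA7, which is closely related to IAA17, gave 351, 273, 177, 312 and 369 in hypocotyls, against 2014, 1997, 2365, 3434 and 2854 in leaves (difference -3.11 ± 0.22, adjusted p = 0.000962). The growth-associated IAA19 averaged 803 ± 201 in hypocotyls and 602 ± 29.6 in leaves (difference 0.38 ± 0.19, adjusted p = 0.189). Of 18 auxin transport genes 9 were higher and 4 lower, 50% and 22.2% (median 0.78). The counts were 6 and 3 without the plate 2 pool. The tropism carrier PIN3 averaged 1397 ± 365 in hypocotyls and 752 ± 57.9 in leaves (difference 0.86 ± 0.17, adjusted p = 0.0184), a call lost when any 1 of 4 pools was left out (adjusted p up to 0.0605). LAX2, an influx carrier of veins, averaged 1493 ± 311 in hypocotyls and 550.4 ± 118 in leaves (difference 1.44 ± 0.12, adjusted p = 0.00137). ABCB4, best known from roots, averaged 496 ± 142 in hypocotyls and 60.2 ± 19.9 in leaves (difference 3.06 ± 0.34, adjusted p = 0.0030) and 1535 ± 430.3 in roots, and ABCB19, which carries auxin down the stem, was lower at 561 ± 74.6 in hypocotyls and 2056 ± 215 in leaves (difference -1.88 ± 0.17, adjusted p = 0.00166).

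For gibberellin, 5 of 23 genes were higher and 8 lower, 21.7% and 34.8% against 15% and 14.5% over all probe sets (median -0.69). With 1 pool left out 3 to 5 were higher and 4 to 6 lower, and 3 and 5 without plate 2. GA3OX1, which makes the active hormone, gave 1496, 1887, 1015, 1669 and 906 in hypocotyls, against 353, 458, 271, 184 and 233 in leaves (difference 2.23 ± 0.23, adjusted p = 0.00251), whereas GA20OX1, an earlier step, was low-signal at 12.3 ± 14 in hypocotyls and 78.5 ± 22.1 in leaves (difference -3.74 ± 0.69, adjusted p = 0.0145), with an adjusted p of 0.0524 without 1 plate 4 pool. The GA20OX1 call was also lost on plate means (adjusted p = 0.0839). These 2 genes of synthesis thus lay on opposite sides, but the difference between them was not tested. The responsive genes GASA4 and GASA6 averaged 3807 ± 1466 in hypocotyls and 11580 ± 1640 in leaves (difference -1.69 ± 0.2, adjusted p = 0.00394) and 969.5 ± 319.9 in hypocotyls and 10220 ± 2512 in leaves (difference -3.43 ± 0.27, adjusted p = 0.00127). Of 12 brassinosteroid genes 4 were lower and 2 higher, 33.3% and 16.7% against 14.5% and 15% over all probe sets. With any 1 pool left out 1 was higher. CPD and BR6OX2, enzymes of its synthesis, averaged 508 ± 70 in hypocotyls and 2800 ± 246 in leaves (difference -2.47 ± 0.15, adjusted p = 0.00072) and 78.6 ± 26.2 in hypocotyls and 278 ± 16.6 in leaves (difference -1.88 ± 0.23, adjusted p = 0.00384), the receptor gene BRI1 averaged 564 ± 71.7 in hypocotyls and 1133 ± 115 in leaves (difference -1.01 ± 0.13, adjusted p = 0.00495), and DWF4 averaged 457 ± 140.5 in hypocotyls and 616 ± 75.2 in leaves (difference -0.48 ± 0.21, adjusted p = 0.142).

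Glucosinolate genes were lower for 10 of 29 and higher for 4, 34.5% and 13.8% against 14.5% and 15% over all probe sets (median -0.57). With 1 pool left out 4 to 6 were lower, and without plate 2 the counts were 5 lower and 3 higher. ESP, the specifier protein that turns their breakdown towards nitriles, gave 200.5, 467, 510, 347 and 272 in hypocotyls, against 18610, 18610, 25160, 16110 and 17870 in leaves (difference -5.81 ± 0.21, adjusted p = 0.000564). MAM1, which lengthens methionine side chains, averaged 1568 ± 895 in hypocotyls and 7571 ± 1547 in leaves (difference -2.49 ± 0.4, adjusted p = 0.00946). A later step, CYP83A1, averaged 7888 ± 1449 in hypocotyls and 10430 ± 1272 in leaves (difference -0.41 ± 0.12, adjusted p = 0.0493), a call lost with any 1 pool left out, and the aliphatic regulator MYB28 averaged 999 ± 315 in hypocotyls and 1511 ± 383 in leaves (difference -0.61 ± 0.28, adjusted p = 0.163). In the indole branch CYP79B2, which makes the first oxime from tryptophan, was higher at 4113, 5845, 7337, 3227 and 2853 in hypocotyls, against 665, 625, 662, 1215 and 731 in leaves (difference 2.54 ± 0.35, adjusted p = 0.00566), as was its regulator MYB34 at 1667 ± 934 in hypocotyls and 364 ± 94.3 in leaves (difference 2.06 ± 0.36, adjusted p = 0.0124), while CYP83B1 averaged 4867 ± 1203 in hypocotyls and 3290 ± 539 in leaves (difference 0.54 ± 0.25, adjusted p = 0.159). The glucosinolate importer GTR2 averaged 2341 ± 591 in hypocotyls and 948 ± 150.2 in leaves (difference 1.28 ± 0.19, adjusted p = 0.00692).

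Of 19 flavonoid genes 8 were higher and 5 lower, 42.1% and 26.3% against 15% and 14.5% over all probe sets (median 1.08). Leaving out 1 pool gave 7 to 9 higher and 2 to 4 lower. The lower count was 3 without plate 2 and 2 on plate means. DFR, the first enzyme committed to anthocyanin, gave 1833, 3853, 4352, 4227 and 1604 in hypocotyls, against 794, 1595, 1204, 649 and 625 in leaves (difference 1.68 ± 0.26, adjusted p = 0.00861) and averaged 78.6 ± 47.9 in roots. UF3GT and UGT75C1, which decorate anthocyanins with sugars, averaged 986 ± 348 in hypocotyls and 228 ± 113 in leaves (difference 2.17 ± 0.32, adjusted p = 0.00691) and 1140 ± 247 in hypocotyls and 299 ± 147 in leaves (difference 2.04 ± 0.23, adjusted p = 0.00304). CHS, the entry enzyme of all flavonoids, averaged 4118 ± 1521 in hypocotyls and 2065 ± 1170 in leaves (difference 1.08 ± 0.35, adjusted p = 0.0745), and the repressor MYBL2 averaged 23.3 ± 9.88 in hypocotyls and 298 ± 58.6 in leaves (difference -3.8 ± 0.26, adjusted p = 0.00091). In DFR and CHS the same 3 hypocotyl pools, both of plate 4 and replicate 1 of plate 6, were the highest.

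Of 16 salicylate and pathogen genes 4 were higher and 6 lower, 25% and 37.5% against 15% and 14.5% over all probe sets (median 0.15). Leaving out 1 pool gave 1 to 3 higher, the lowest count without the second plate 6 pool. The median was then -0.0736 to 0.252. PR1, the standard salicylate marker, gave 61.3, 88.5, 62.5, 49.9 and 173 in hypocotyls, against 5256, 2740, 7422, 4409 and 2312 in leaves (difference -5.7 ± 0.52, adjusted p = 0.00176), and PDF1.2, a defensin of the jasmonate and ethylene response, gave 51.8, 63.9, 47.4, 445 and 94.1 in hypocotyls, against 6404, 8636, 10180, 11890 and 7962 in leaves (difference -6.58 ± 0.45, adjusted p = 0.000943). PR2, a beta-glucanase usually induced with PR1, went the other way at 6621, 7689, 4897, 4869 and 6546 in hypocotyls, against 575, 275, 536, 401 and 282 in leaves (difference 3.93 ± 0.29, adjusted p = 0.00112), with 68.6 ± 39.3 in roots. The organs did not overlap in any of the 3, as in 2869 of all 3406 higher calls and 2605 of all 3304 lower calls. Of 19 jasmonate genes 5 were lower and 3 higher, 26.3% and 15.8% against 14.5% and 15% over all probe sets. There were 0 to 3 higher and 3 to 5 lower with 1 pool left out, and none was higher without plate 2. LOX2, the leaf lipoxygenase of jasmonate synthesis, gave 120.1, 113, 182, 362 and 166 in hypocotyls, against 5578, 5892, 4794, 5737 and 4387 in leaves (difference -4.93 ± 0.29, adjusted p = 0.00072). LOX3 and LOX4 gave 157, 47.2, 19.6, 259 and 212 in hypocotyls, against 413, 145, 197, 1123 and 858 in leaves (difference -2.1 ± 0.31, adjusted p = 0.00699) and 334, 68.1, 54.9, 522 and 407 in hypocotyls, against 710.3, 279.9, 192, 1356 and 1244 in leaves (difference -1.59 ± 0.18, adjusted p = 0.00314). Both varied with the plate in both organs, lowest on plate 4 and highest on plate 6, so that the organs overlapped across pools while every pool on its own was lower in hypocotyls. Neither passed with no block, with the pool as a random block or by the methods' t-test (adjusted p up to 0.119 for LOX3 and 0.217 for LOX4), but both passed with the plate as the block and on plate means.

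Of 20 starch and sucrose genes 7 were lower (35%) and 3 higher, the same 15% as over all probe sets (median -0.48). Without the plate 2 pool 4 were lower and 2 higher, and the lower count was 4 without either plate 4 pool. SUS4 and SUS1, the sucrose synthases that cleave sucrose in non-photosynthetic tissue, gave 3864, 3466, 4537, 3509 and 5517 in hypocotyls, against 153, 89.5, 156, 286 and 143 in leaves (difference 4.74 ± 0.28, adjusted p = 0.000731) and 3245, 3152, 3096, 3430 and 6099 in hypocotyls, against 649.6, 624, 416, 537 and 459 in leaves (difference 2.79 ± 0.25, adjusted p = 0.00166), with 1948 ± 468 and 2300 ± 588 in roots. GBSS1, which makes amylose, averaged 321 ± 59.6 in hypocotyls and 1055 ± 267 in leaves (difference -1.7 ± 0.18, adjusted p = 0.00263). Hypocotyls had the highest mean of the 3 organs for both sucrose synthases, though SUS1 did not pass against roots (adjusted p = 0.131).

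Among 17 nitrogen genes 2 were higher and 7 lower, 11.8% and 41.2% against 15% and 14.5% over all probe sets (median -0.31). The counts were 1 and 4 without plate 2 or either plate 4 pool. NRT1.9, a nitrate transporter of phloem companion cells, gave 3918, 3422, 3325, 2452 and 3261 in hypocotyls, against 665, 507, 480.3, 795 and 606 in leaves (difference 2.43 ± 0.21, adjusted p = 0.00161), NRT1.1, the dual-affinity nitrate transceptor, averaged 340 ± 85.6 in hypocotyls and 2296 ± 549.8 in leaves (difference -2.76 ± 0.18, adjusted p = 0.000828), and GLN1;2, a cytosolic glutamine synthetase, averaged 827 ± 196 in hypocotyls and 3038 ± 226 in leaves (difference -1.91 ± 0.17, adjusted p = 0.00166). The nitrate reductases NIA1 and NIA2 averaged 3332 ± 789 in hypocotyls and 2381 ± 722 in leaves (difference 0.5 ± 0.26, adjusted p = 0.212) and 11680 ± 2252 in hypocotyls and 9511 ± 653 in leaves (difference 0.28 ± 0.16, adjusted p = 0.24), and did not pass. Aquaporins were lower for 7 of 15 and higher for 2, 46.7% and 13.3% against 14.5% and 15% over all probe sets (median -0.65). The higher count was 1 without plate 2 or either plate 4 pool. TIP2;2, a tonoplast channel, gave 82 ± 22.7 in hypocotyls and 845 ± 236 in leaves (difference -3.36 ± 0.23, adjusted p = 0.000897), while PIP1;2 and PIP2;6 of the plasma membrane averaged 3857 ± 538 in hypocotyls and 8724 ± 1022 in leaves (difference -1.18 ± 0.12, adjusted p = 0.0022) and 3133 ± 633 in hypocotyls and 8062 ± 1879 in leaves (difference -1.36 ± 0.14, adjusted p = 0.00225). TIP1;1 averaged 5408 ± 1141 in hypocotyls and 6596 ± 1053 in leaves (difference -0.3 ± 0.19, adjusted p = 0.295).

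Of 16 clock genes 3 were higher and 3 lower (median -0.19). This was 18.8% each way, near the 15% higher and 14.5% lower over all probe sets. None passed in either direction on plate means, and 1 was higher without the second plate 4 pool or the first plate 6 pool. The evening gene TOC1 averaged 673 ± 92.5 in hypocotyls and 371 ± 32.3 in leaves (difference 0.86 ± 0.13, adjusted p = 0.00762). CHE, which binds the promoter of CCA1, averaged 485 ± 123 in hypocotyls and 1378 ± 216 in leaves (difference -1.53 ± 0.18, adjusted p = 0.00348), and LNK2, a coactivator of evening genes, averaged 298 ± 67.2 in hypocotyls and 705 ± 132 in leaves (difference -1.25 ± 0.18, adjusted p = 0.00654). The morning genes CCA1 and LHY averaged 269.9 ± 23.2 in hypocotyls and 360.2 ± 61.2 in leaves (difference -0.41 ± 0.17, adjusted p = 0.13) and 699 ± 59.2 in hypocotyls and 819.5 ± 239 in leaves (difference -0.19 ± 0.17, adjusted p = 0.453). Of 9 genes often used as references, ACT8 passed at 5202 ± 242 in hypocotyls and 3013 ± 194 in leaves (difference 0.79 ± 0.12, adjusted p = 0.00692). ACT2, UBQ10, PP2AA3 and YLS8 differed by -0.35, -0.2, 0.21 and 0.36 on the log2 scale, with adjusted p = 0.0822, adjusted p = 0.558, adjusted p = 0.295 and adjusted p = 0.0716, and UBQ10 changed sign after quantile normalization. Seed storage genes were at background: of 12 only EM6, at 24 ± 24.9 in hypocotyls and 4.32 ± 2.34 in leaves (difference 1.85 ± 0.4, adjusted p = 0.0233), passed, and its call was lost without either plate 4 pool or without 1 plate 6 pool (adjusted p up to 0.0716).

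The plants grown in orbit gave a second set of 5 hypocotyl and 5 leaf arrays that shares no array with the ground comparison. There 3493 probe sets were higher in hypocotyls (15.4%) and 2955 lower (13%). Of the ground calls, 2424 higher (71.2% of the ground list and 69.4% of the flight list) and 2396 lower (72.5% and 81.1%) were called the same way in flight. The sign in flight was the same for 99.1% of the ground higher calls and 94.3% of the ground lower calls, and for 78.4% of all probe sets. Only 3 probe sets were called in opposite directions, AT3G47230, AT4G13740 and AT2G30940, all low-signal and chosen here for that reason. All 12 genes highest and all 12 lowest in ground hypocotyls passed in the same direction in flight, with differences of 4.52 to 7.97 and -9.26 to -6.24.

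The difference between the organ differences was itself tested. No probe set passed (0 of 22746, smallest adjusted p 0.475), and 1382 (6.08%) had an unadjusted p under 0.05. With plates in place of pools as the block 2 low-signal genes passed, AT4G14980 and AT3G47230, at adjusted p of 0.0498 and 0.0494. List medians were close for several lists: -1.91 in ground control and -1.82 in flight for photosystem genes, 1.78 and 1.68 for cambium, and -2.94 and -2.58 for the cuticle. They were farther apart for secondary walls, at 1.64 in ground control and 2.25 in flight, and for trichomes, at -2.83 and -2.11. The sign of the median changed for gibberellin (-0.69 and 0.11), salicylate (0.15 and -0.51), jasmonate (-0.04 and 0.23) and root markers (-0.03 and 0.03). Apart from the seed storage genes, which were at background, the list medians were farthest apart for flavonoids, with a ground median of 1.08, 8 higher and 5 lower, and a flight median of 0.19, none higher and 3 lower. For DFR the ground difference was 1.68 and the flight difference 0.52 (adjusted p = 0.363), and no flavonoid gene passed the test of the difference between them.

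**Figure D4:**
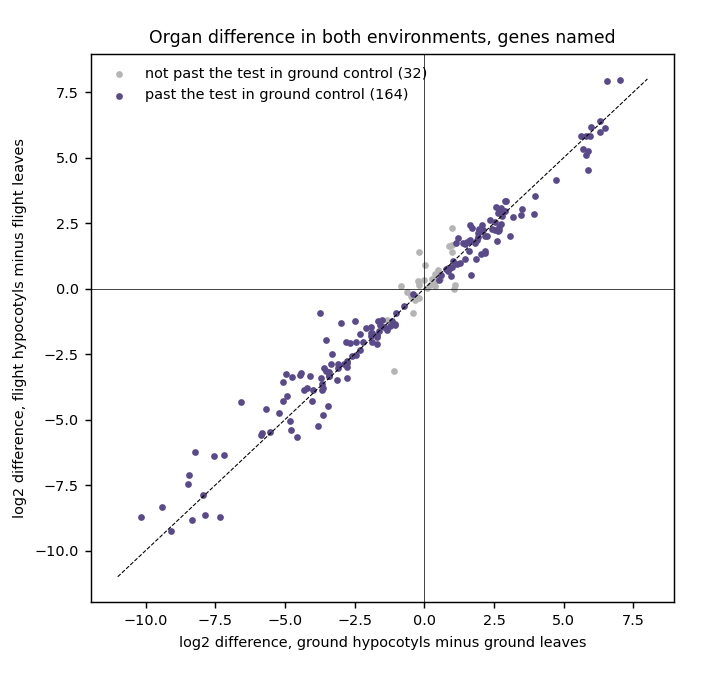
Log2 difference of hypocotyls minus leaves in flight (vertical axis) against the same difference in ground control (horizontal axis) for the 196 genes considered for the text, with the 164 past the test in ground control in colour and a dashed line of equal differences. All 164 have the same sign in flight, and 152 of them also passed there.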

How the data were processed

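RNA of each pool was hybridised to Affymetrix ATH1 arrays. The authors deposited linear MAS5 signal intensities from Affymetrix Expression Console, whose version is not given in the sources used here; MAS5 corrects background, summarises the probes of a set and scales each array to a common trimmed mean (492.8 to 494.9 on these arrays). MAS5 signals include values near 0, whose log2 spreads widely. Log2 signals, with no offset, were fitted with limma 3.58.1 in R 4.3.3, with organ as the effect and pool as the block (4 residual and 1.42 prior degrees of freedom). The interaction fit used flight and ground pools. The code was tested on simulated data. The labels do not state that organs with the same plate and replicate number share plants: their deviations correlated at 0.092 to 0.28 above the low-signal limit (-0.3 to 0.054 between plates) but at -0.036 to 0.049 over all probe sets, and at 0.065 in a fit with the pool as a random block, so the pairing rests on the shared numbers. The methods call the pools biological replicates made of separate plants, but several share a plate, so p-values measure the spread between these pools. The number of arrays limits the precision.

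Genes come from the array annotation in the deposited table and RefSeq symbols of TAIR10.1, which held the locus of 22091 probe sets; 21447 had 1 locus. Members and the 36 lists (717 entries with a probe set of their own) were chosen with earlier results of these data known. Named were the 12 largest differences each way, the 3 smallest p of each list and preset key genes, of which the text gives most; 1 of these genes is not reported here. Tables of the authors' own comparisons between flight and ground, with their fold changes and p-values, were not used. Alternatives were quantile and 75th percentile scaling, an offset, leaving out low signals, other blocks, plate means, limma with trend and robust settings, the methods' t-test, each pool left out, and a fit of all 15 ground arrays.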

Additional observations from a re-analysis of the deposited data

Results flagged for a closer look

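For each of the 196 genes considered, the 5 arrays of an organ were compared on log2 signals, while linear signals are printed below. On the log2 scale, 1 array was noted when its gap to the nearest of the other 4 was more than 0.71 of the whole range. This happened in 23 of 392 groups of 5 arrays, or 5.87%, where chance gives about 5%. By array the count was at most 4, so no array gathered most of them. Among hypocotyl arrays, AT2G15780 read 3349 on plate 4 replicate 1, against 1838 to 2079 on the other 4 arrays, and ZFP5 read 1391 on plate 4 replicate 2, against 1805 to 1979 on the other 4 arrays. AT3G05730 read 7.31 on plate 4 replicate 1, against 20.6 to 29.1 on the other 4 arrays, and SWEET11 read 308 on plate 6 replicate 1, against 43.5 to 74.2 on the other 4 arrays. PIN2 read 7.38 on plate 6 replicate 1, against 56.1 to 92.3 on the other 4 arrays. SUS1 read 6099 on plate 6 replicate 2, against 3096 to 3430 on the other 4 arrays, and ACT2 read 7162 on plate 4 replicate 1, against 6369 to 6509 on the other 4 arrays.

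Among leaf arrays, LURP1 read 1163 on plate 6 replicate 2, against 1759 to 1997 on the other 4 arrays, and CGA1 read 12.4 on plate 6 replicate 2, against 65.7 to 126 on the other 4 arrays. HY5 read 124 on plate 6 replicate 2, against 186 to 209 on the other 4 arrays, and PHOT1 read 2136 on plate 6 replicate 1, against 1491 to 1577 on the other 4 arrays. IRX15-L read 196 on plate 4 replicate 2, against 106 to 122 on the other 4 arrays, and FAH1 read 483 on plate 6 replicate 1, against 307 to 347 on the other 4 arrays. KNAT7 read 64.8 on plate 6 replicate 1, against 121 to 150 on the other 4 arrays, and RUL1 read 536 on plate 4 replicate 2, against 365 to 406 on the other 4 arrays. KNAT1 read 566 on plate 4 replicate 2, against 225 to 290 on the other 4 arrays, and KN read 1569 on plate 4 replicate 1, against 1205 to 1300 on the other 4 arrays. ETT read 210 on plate 4 replicate 2, against 254 to 275 on the other 4 arrays, and GASA4 read 8803 on plate 2 replicate 1, against 11570 to 12790 on the other 4 arrays. CPD read 2376 on plate 4 replicate 1, against 2831 to 2998 on the other 4 arrays, and CYP79B2 read 1215 on plate 6 replicate 1, against 625 to 731 on the other 4 arrays. TOC1 read 314 on plate 2 replicate 1, against 377 to 393 on the other 4 arrays, and CCA1 read 467 on plate 4 replicate 1, against 312 to 346 on the other 4 arrays. Both KNOX gene KNAT1 and the cambium kinase RUL1 had their highest leaf signal on plate 4 replicate 2, and in both it was below every hypocotyl signal. None of these arrays was left out.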

How the results depend on the processing

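The count of probe sets higher in ground hypocotyls was 3406, and fell to 1079 when the pools of a plate were averaged to 3 plate means per organ, which leaves fewer samples, and to 1617 when a log2 difference of at least 1 was also asked for. With 1 pool left out it ran from 1803 to 2324, with 2113 higher and 2371 lower without the plate 2 pool, whose leaf array stood apart. The lower count of 3304 became 1847 on plate means. In flight the higher count was 1362 on plate means, 1812 at a log2 difference of at least 1 and 2127 to 2298 with 1 pool left out, and the lower count was 1739 on plate means. Without the replicate block the ground counts were 4182 higher and 3475 lower, with the pool as a random block 4386 and 3626, and by the methods' t-test at an unadjusted p under 0.01 they were 3844 and 3006. The count of probe sets whose organ difference differed between environments was 2 with plate as the block and 0 under the other settings, and with single pools left out the smallest adjusted p ran from 0.0882 to 0.569. Of the 164 named genes that passed, 143 could be fitted in all 16 settings and 120 of them kept their call in each; the other 21 could not be fitted with low signals left out, and 10 of them kept their call in the remaining settings. None of the 164 changed sign. Of them 17 lost the call with some pool left out, 12 of these without the plate 2 pool, 30 on plate means and 10 elsewhere. Among the 32 named genes that had not passed, several passed in other settings. VND7 did so in 9 of 16 settings, CLE41 and YLS8 in 8, PHYA and ACT2 in 7, and KN in 6. Sign changed for 5 genes that had not passed: GLK2 (0.0454 on plate means, -0.0932 to 0.074 with 1 pool left out), PHYB (-0.0408 after quantile normalization, -0.0338 at a shared 75th percentile, -0.0124 on plate means), WUS (-0.111 at a shared 75th percentile, -0.0834 with the offset, -0.124 on plate means, -0.968 to 1.22 with 1 pool left out), CLV3 (0.496 after quantile normalization, -0.438 to 0.292 with 1 pool left out) and UBQ10 (0.0807 after quantile normalization). On plate means the higher count was 8 of 19 secondary wall, 6 of 31 xylem, 4 of 23 suberin, 4 of 18 auxin transport and 0 of 15 mitosis genes, and the lower count 11 of 26 leaf polarity and 3 of 29 glucosinolate genes. The median of 7 of 36 lists changed sign in some setting. Scaling moved the median of all probe sets to 0.125 (quantile) and -0.102 (75th percentile). The cause of these changes was not tested. Hypocotyl signals near the array floor, as in CA1 and GER3, limit what the log2 sizes can show.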
